A study of Mus musculus with 80 samples.

Results

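The genes described here are 10 of the 78275 genes listed in a liver RNA sequencing time course of fed and fasted mice, chosen by name as members of the growth hormone and insulin-like growth factor 1 (IGF-1) axis: Ghr, Stat5b, Socs2, Cish, Igf1, Igfals, Igfbp1, Igfbp2, Igfbp4 and Hsd3b5. The choice uses gene symbols alone, and all 10 passed the filter on low counts. The mice were C57BL/6J, an inbred strain, bought at 8 to 12 weeks of age, housed in groups, and moved from a light–dark cycle into constant darkness. Control mice kept their food throughout, while fasted mice lost theirs at circadian time (CT) 10. Livers were taken at 10 times, every 4 h from CT8 to CT44, from 2 males and 2 females of each treatment, so that there were 80 libraries, each read here as 1 mouse, and the fasted group of CT8 was still fed. The fast had lasted 2 h at CT12 and 34 h at CT44. The labels name no transgene or deletion in either group, and the tissue was whole liver from the left lobe.

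Growth hormone from the pituitary binds its receptor (Ghr) on hepatocytes and, through the kinase JAK2, activates the transcription factor STAT5b, which induces Igf1, Igfals and the feedback inhibitors Socs2 and Cish. IGF-1 travels in blood bound to IGF binding proteins, and the acid-labile subunit encoded by Igfals holds it in a long-lived ternary complex, while IGFBP1 is a short-lived binding protein that insulin represses through FOXO1. The pituitary secretes growth hormone in separated pulses in male rodents and more continuously in females, and male-type liver genes such as Hsd3b5 depend on the pulses.

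RefSeq promoter windows were at hand for 9 of the 10 genes (14 windows, GRCm38.p6), and the 250 bases before each start site were searched on both strands for TTCNNNGAA, the palindrome that STAT5 binds, and for CAAAACA, the core of the insulin response element bound by FOXO1. CAAAACA was found in 1 member window, that of Igfbp1, 108 bases before the start, and in 5.56% of all 32851 windows. TTCNNNGAA was found in 2 member windows, both of Igfals, 58 and 236 bases before different start sites, and in 7.02% of all windows. The stretches of 100 bases around these matches are shown, whatever the change of the gene under fasting, and capitals mark the match. The Igfbp1 stretch is chr11:7197633-7197732, and the Igfals stretches are chr17:24878128-24878227 and chr17:24877594-24877693, all on the plus strand and 5′ to 3′. A match of letters is a description and not a binding site, and in the other 11 windows these letters were not found. Among these 11 was that of an Igfals start site at chr17:24878747, downstream of both Igfals start sites with a match.
Igfbp1: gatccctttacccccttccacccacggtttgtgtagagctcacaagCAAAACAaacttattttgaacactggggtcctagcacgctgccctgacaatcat
Igfals, near start site: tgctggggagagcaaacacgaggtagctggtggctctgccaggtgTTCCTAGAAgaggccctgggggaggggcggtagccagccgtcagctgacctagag
Igfals, upstream start site: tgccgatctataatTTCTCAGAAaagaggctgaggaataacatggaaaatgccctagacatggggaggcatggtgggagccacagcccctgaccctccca

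Total gene counts per library lay between 25534901 and 59927771. The library of control CT8 female 2 held 31.3% of its counts on ribosomal RNA genes, against at most 4.88% in any other. The sample titles were followed where the finer labels contradicted them (40 libraries for sex, 40 for treatment), and transcripts of the sex chromosomes matched the sex in the title in 80 of 80 libraries. Levels are in CPM, a gene's counts relative to the total of its library, after scaling with edgeR's TMM factors, and changes are on the log2 scale with their standard error (SE). A gene was called when its p from edgeR's quasi-likelihood test, adjusted by the Benjamini–Hochberg method over all 21187 genes tested, was under 0.05. At CT8, before food was removed, 0 of 10 members were called between the later fasted and the control mice, beside 1.33% of all genes; 1 member, Igfbp4, had an unadjusted p under 0.05 (0.0348). The sum of the hepatocyte markers Alb, Apoa1, Ttr, Serpina1a and Cyp2e1 had a median of 83308 CPM in controls and 94178 CPM in fasted mice. These markers moved both ways: averaged over CT12 to CT44, 3 were called higher and 1 lower in fasted mice. Apoa1 changed by 0.81, Cyp2e1 by 0.76 and Ttr by -0.48, and the share of hepatocytes itself was not measured.

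Over the fast, transcripts of the growth hormone receptor, the acid-labile subunit and the male-type enzyme Hsd3b5 fell. That of IGF-1 fell in females, and those of the 3 IGF binding proteins rose. Averaged over CT12 to CT44, Igfbp1 was 20.3-fold higher in fasted than in control mice, and in males Hsd3b5 was 23.9-fold lower. In all, 9 of 10 members were called in that mean (edgeR's quasi-likelihood test), beside 62.5% of all genes; 3 were higher, beside 29.5%, and 6 lower, beside 32.9%, so that a call in either direction was common. The member not called was Socs2. The median change over the 10 members was -0.23 on the log2 scale, beside -0.02 over all genes tested. With a change of at least 1.5 times asked for as well, 5 members were called: Ghr, Igfals, Igfbp1, Igfbp2 and Hsd3b5. In whole liver, fewer cells of a type and less RNA per cell cannot be told apart.

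Ghr, the receptor through which hepatocytes sense growth hormone, was first called lower at CT20, after 10 h without food, and fell in both sexes. From CT12 to CT44 it ranged from 413 to 698 CPM (median 550.4, n = 36) in controls and from 60.9 to 661 CPM (median 315, n = 36) in fasted mice. At CT16, after 6 h, the fasted mice still overlapped the controls, with 454 and 567 CPM in males and 449 and 445 CPM in females against 504 and 616 CPM in males and 481 and 511 CPM in females. At CT20 the fasted mice had 377 and 351 CPM in males and 169 and 216 CPM in females, and the controls 509 and 589.7 CPM in males and 462 and 442 CPM in females. Every fasted mouse then lay below every control mouse, a gap that 29.8% of all genes had in either direction at CT20, and the same held at 7 of the 9 times. Between 5.96% (CT12) and 30.1% (CT44) of all genes had such a gap at single times. The mean change was -0.87 (SE 0.06, adjusted p = 3.02e-16, edgeR's quasi-likelihood test), lower at 9 of 9 times, with a change of -0.04 (SE 0.19) at CT12 and -1.34 (SE 0.19) at CT44. The lowest of the 80 mice, fasted CT40 female 2, had 60.9 CPM, against 229 CPM in the other fasted female of that time.

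**Figure D1:**
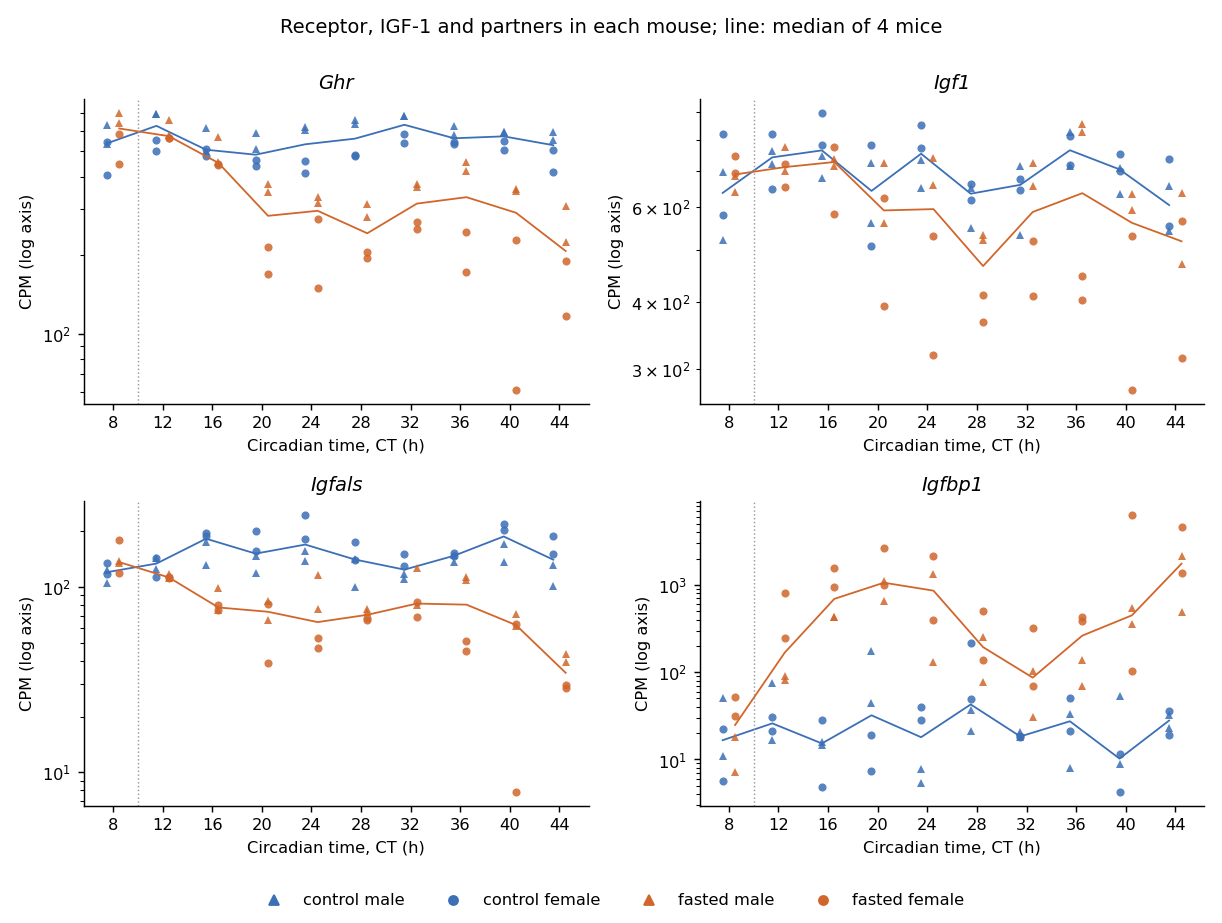
Levels of Ghr, Igf1, Igfals and Igfbp1 in each of the 80 mice (CPM, log axis) by circadian time; triangles are males, circles females, lines the medians of 4 mice, and the dotted line marks the removal of food at CT10. Fasted mice separate from controls by CT16 for Igfals and Igfbp1 and by CT20 for Ghr, whereas for Igf1 mainly the fasted females lie low; fasted CT40 female 2 stands apart in Ghr, Igfals and Igfbp1.

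Stat5b, the transcription factor activated by the receptor, changed little in amount. It ranged from 44.5 to 109 CPM (median 68.2, n = 36) in controls and from 41.1 to 88.7 CPM (median 60.8, n = 36) in fasted mice, so that the groups overlapped over most of their range. The mean change was -0.17 (SE 0.04, adjusted p = 2.44e-04, edgeR's quasi-likelihood test), a fall of 1.12-fold. At single times it was called lower at CT20 and CT44 only. At CT44 the 4 fasted mice lay between 60.5 and 71.2 CPM, all below the 4 controls at 77.3 to 109 CPM, a change of -0.56 (SE 0.12, adjusted p = 1.51e-04). In limma-voom the call at CT20 was lost without any 1 of 5 libraries of that time. These are transcript levels, and the phosphorylation that activates the protein was not measured.

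Socs2 and Cish, which STAT5 induces and which then dampen signalling from the receptor, differed more between mice than between treatments. Socs2 ranged from 3.87 to 86.1 CPM (median 19.8, n = 36) in controls and from 3.11 to 122 CPM (median 18.7, n = 36) in fasted mice. Its mean change was 0.01 with a 95% interval of -0.43 to 0.46 (adjusted p = 1, edgeR's quasi-likelihood test), and it was called at 0 of 9 times, at none of which its unadjusted p was under 0.05. The sign of this mean change turned under other settings, among them limma-voom (-0.035) and leaving out CT12 (-0.049). Cish ranged from 1.83 to 93.5 CPM (median 25.1, n = 36) in controls and from 2.52 to 86.2 CPM (median 14.5, n = 36) in fasted mice. Its mean change was -0.57 (SE 0.23, adjusted p = 0.0259, edgeR's quasi-likelihood test), lower at 6 of 9 times and called at 0 of them, with an unadjusted p under 0.05 at CT24 and CT36. That call was lost in limma-voom (-0.47, adjusted p = 0.0961) and with CT24, CT32, CT36 or CT40 left out (adjusted p between 0.0755 and 0.105). Cish shares exons with the antisense genes Gm17040 and Gm17041 in GENCODE M21, and whether counting used the strand is not given in the sources used here.

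The spread between mice of the same treatment, time and sex placed both inhibitors among the most variable genes in the liver. The pooled SD of Socs2 was 0.97 on the log2 scale in controls, larger than that of 98.0% of all genes tested, and that of Cish was 1.16, larger than 99.2%. Igfbp1 was in the same range, with a pooled SD of 1.09 in controls (98.9%). Ghr and Igfbp4 were steady in fed liver, with 0.12 and 0.12, larger than 15.1% and 15.7% of genes. In fasted mice from CT12 on the pooled SD of Ghr was 0.40, or 0.25 without the CT40 females (female 2 stood apart there), and that of Igfbp4 0.10. At control CT20 the 2 males had 72.7 and 6.06 CPM of Socs2, and at control CT28 they had 32.6 and 1.83 CPM of Cish. No other control pair of 1 time and sex lay further apart in either gene.

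**Figure D2:**
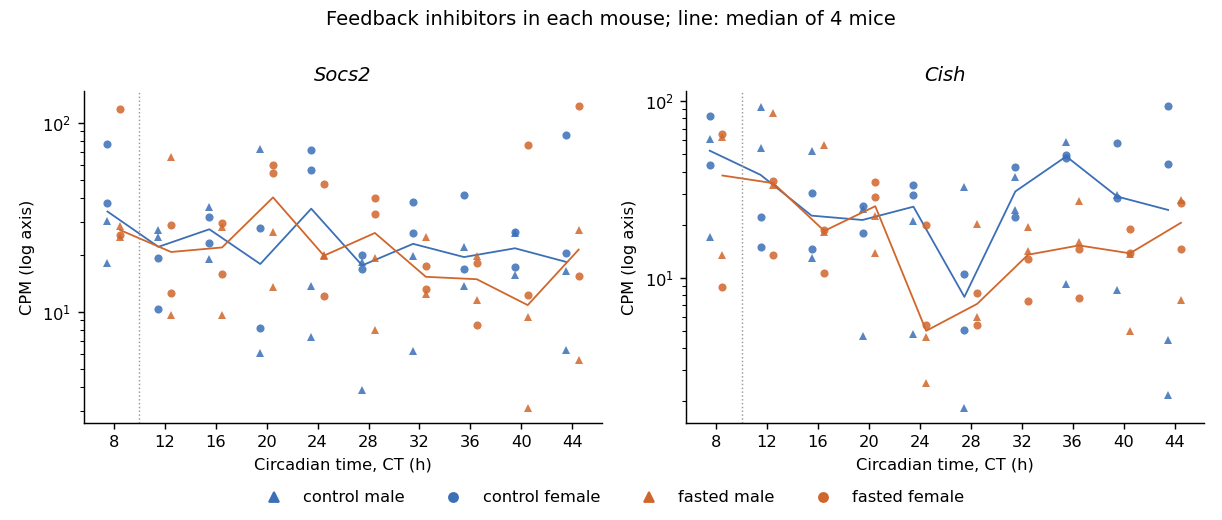
Levels of Socs2 and Cish in each of the 80 mice (CPM, log axis) by circadian time, with symbols and lines as for the receptor. Mice of 1 treatment, time and sex differ by up to 12.0 times for Socs2 and 17.8 times for Cish in controls, and the treatments overlap at most times.

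The differences between the 2 mice of the same treatment, time and sex were set side by side for Ghr, Socs2, Cish, Igf1, Igfals and Igfbp1, with 20 pairs of control mice, 18 pairs of fasted mice from CT12 on and 30 relations in all, each with a two-sided permutation test of 100000 resamples, whose smallest p is 2e-05. In controls, the mouse with more Socs2 mostly had more Igf1 as well, in 16 of 20 pairs, with Pearson's r 0.77 (p = 8e-05, adjusted p = 0.0012), Spearman's rho 0.83 (p = 2e-05, adjusted p = 3e-04) and r 0.75 without the 2 pairs farthest from the median. Igf1 and Igfals also went together in controls, with Pearson's r 0.64 (p = 0.00262, adjusted p = 0.0157), Spearman's rho 0.63 (p = 0.0035, adjusted p = 0.0262) and r 0.58 without the 2 pairs farthest from the median. In fasted mice the mouse with more Socs2 mostly had more Cish, in 16 of 18 pairs, with Pearson's r 0.84 (p = 2e-05, adjusted p = 6e-04), Spearman's rho 0.88 (p = 2e-05, adjusted p = 3e-04) and r 0.92 without the 2 pairs farthest from the median. For Ghr and Igfbp1 in fasted mice the values were Pearson's r -0.77 (p = 0.00104, adjusted p = 0.0104), Spearman's rho -0.60 (p = 0.00886, adjusted p = 0.0532) and r -0.44 without the 2 pairs farthest from the median. Of the 30 relations, 8 passed by r after adjustment, and 4 of these, all in fasted mice, did not pass by rho: Ghr with Socs2, Ghr with Igfbp1, Igf1 with Igfals and Igfals with Igfbp1. Without the 2 farthest pairs, r in these 4 lay between -0.45 and 0.24. In every relation the pairs left out were those farthest from the median in the gene named first. Pairs far out only in the other gene were kept. Both genes of a pair were read from the same libraries, and the differences between treatments in these relations were not tested.

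Igf1, the main effector of growth hormone made by the liver, fell over the fast in females, while no change was called in males. In controls it ranged from 507 to 897 CPM (median 712, n = 36) and in fasted mice from 274 to 857 CPM (median 587, n = 36). In males the ranges were alike, from 532 to 828 CPM (median 695, n = 18) fed and from 471 to 857 CPM (median 680.3, n = 18) fasted, with a change of -0.01 and a 95% interval of -0.18 to 0.15. In females Igf1 ranged from 507 to 897 CPM (median 728, n = 18) fed and from 274 to 777 CPM (median 483, n = 18) fasted, a change of -0.57 (SE 0.08, adjusted p = 7.76e-08, edgeR's quasi-likelihood test). At CT36 the fasted females had 447 and 403 CPM and the fasted males 857 and 826 CPM, against 715 and 828 CPM in males and 717 and 813 CPM in females in controls. There the 2 fasted females lay below all other mice while the fasted males overlapped the controls. At CT28, by contrast, the 4 fasted mice of both sexes, at 367 to 533 CPM, lay below the 4 controls, at 549 to 661 CPM. That was so at 1 of the 9 times only, beside 18.5% of all genes at CT28. The change of -0.45 (SE 0.18) there was not called (adjusted p = 0.0585, edgeR's quasi-likelihood test). The mean over both sexes was -0.29 (SE 0.06, adjusted p = 2.37e-05), lower at 9 of 9 times, and single times were called at CT24 and CT40 only. In limma-voom the call at CT40 (-0.53, adjusted p = 0.0129) was lost without fasted CT40 female 2 (-0.29, adjusted p = 0.225) or fasted CT40 male 2 (-0.49, adjusted p = 0.0506), and that at CT24 (-0.48, adjusted p = 0.0387) without any 1 of 7 libraries, most of all fasted CT24 female 2 (-0.30, adjusted p = 0.28). The Kupffer cell markers Clec4f, Cd5l, Vsig4, Adgre1 and Timd4, of macrophages that can also make IGF-1, were lower in fasted mice in 5 of 5 cases, with a summed level of 182 to 541 CPM (median 284) in controls and 118 to 390.3 CPM (median 212) in fasted mice; their part in the change of Igf1 was not tested.

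Igfals, which holds IGF-1 in the ternary complex of blood, fell earlier and further than Igf1. It ranged from 99.6 to 244 CPM (median 146, n = 36) in controls and from 7.84 to 127 CPM (median 74.4, n = 36) in fasted mice. At CT16 the fasted mice had 75.3 and 98.8 CPM in males and 79.8 and 75.2 CPM in females and the controls 176 and 132 CPM in males and 196 and 189 CPM in females, so that the groups no longer overlapped after 6 h without food, beside 18.9% of all genes at that time. They did not overlap at 7 of the 9 times. At CT32, with 127 and 80.1 CPM in males and 82.7 and 68.5 CPM in females fasted and 111 and 118 CPM in males and 151 and 131 CPM in females fed, they overlapped again and the change was not called (-0.52, SE 0.26, adjusted p = 0.17, edgeR's quasi-likelihood test). At CT44 it was -2.01 (SE 0.27), or 4.04-fold lower, with 43.6 and 39.5 CPM in males and 29.4 and 28.6 CPM in females in fasted and 131 and 101 CPM in males and 189 and 150.0 CPM in females in control mice. The mean change was -1.13 (SE 0.09, adjusted p = 1.49e-15). Fasted CT40 female 2 had 7.84 CPM, against 61.5, 71.4 and 63.1 CPM in the other fasted mice of that time; without it the change at CT40 in limma-voom went from -2.15 to -1.47 and stayed called (adjusted p = 2.09e-08).

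Igfbp1, the insulin-repressed binding protein, showed the largest rise of the axis, with 2 waves along the fast. It ranged from 4.26 to 218 CPM (median 21.1, n = 36) in controls and from 30.8 to 6300.5 CPM (median 431, n = 36) in fasted mice. At CT12, after 2 h, the fasted mice already had 81.4 and 89.7 CPM in males and 245 and 816 CPM in females and the controls 74.5 and 16.6 CPM in males and 30.9 and 21.0 CPM in females, a gap that 5.96% of all genes had at that time, although the change of 2.63 (SE 0.84) was not called (adjusted p = 0.0962, edgeR's quasi-likelihood test). At CT16 the levels were 429.9 and 433 CPM in males and 953 and 1585 CPM in females in fasted and 15.8 and 14.7 CPM in males and 4.77 and 28.5 CPM in females in control mice, a change of 5.54 (SE 0.96, adjusted p = 2.03e-05). The change was 6.01 (SE 0.98) at CT24, came down to 1.87 (SE 0.81, adjusted p = 0.0968) at CT28 and 2.60 (SE 0.84, adjusted p = 0.0246) at CT32, and reached 6.17 (SE 0.98) at CT44. At CT28 the 4 fasted mice, at 77.0 to 497 CPM, overlapped the controls, whose highest mouse had 218 CPM, and at the other 8 times of the fast every fasted mouse lay above every control mouse. Fasted CT40 female 2 had 6300.5 CPM, the highest level of all 80 mice, and fasted CT40 female 1 had 104 CPM. Without female 2, the change at CT40 in limma-voom went from 5.69 to 4.19 and remained called (adjusted p = 2.15e-04).

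Igfbp2, another carrier of IGF-1 made by hepatocytes, rose through the fast. It ranged from 272 to 692 CPM (median 385, n = 36) in controls and from 409 to 1794 CPM (median 831, n = 36) in fasted mice. At CT40 the fasted mice had 1077 and 978 CPM in males and 1173 and 1794 CPM in females and the controls 316 and 335 CPM in males and 404 and 357 CPM in females, with no overlap, beside 26.7% of all genes at that time, as at 7 of the 9 times. The change grew from 0.60 (SE 0.22) at CT16 to 1.81 (SE 0.22) at CT40, was called at 8 of 9 times, and averaged 0.99 (SE 0.07, adjusted p = 3.56e-16, edgeR's quasi-likelihood test).

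Igfbp4, a binding protein that holds IGF back from its receptor, rose by the least of the 3, with changes between 0.19 and 0.37 at the 9 times. It ranged from 985 to 1726 CPM (median 1285, n = 36) in controls and from 1128 to 2057 CPM (median 1637, n = 36) in fasted mice, with wide overlap over the whole series of times. At CT44 the fasted mice had 1609.5 and 1589 CPM in males and 1665 and 1493 CPM in females and the controls 1198 and 1194 CPM in males and 1254 and 1257 CPM in females, and no fasted mouse reached down to a control. The mean change was 0.25 (SE 0.03, adjusted p = 7.64e-11, edgeR's quasi-likelihood test), or 1.19-fold, higher at 9 of 9 times and called at 5 of them. None of these 5 calls held without the filter on low counts (adjusted p from 0.062 to 0.563). The change itself moved little in that setting, with 0.37 at CT44 in both. It was 0.18 (SE 0.08, adjusted p = 0.337) at CT8, before food was removed, and 0.11 there without the library rich in ribosomal RNA.

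Hsd3b5, a steroid dehydrogenase of male liver that follows the male pattern of growth hormone, fell the most. In males it ranged from 106 to 379.9 CPM (median 236, n = 18) fed and from 0.193 to 264 CPM (median 11.2, n = 18) fasted. At CT12 the fasted males had 264 and 114 CPM and overlapped the controls at 236 and 185 CPM. At CT24 they had 13.0 and 39.3 CPM against 365 and 278 CPM, and at CT44 0.718 and 0.193 CPM against 278 and 236 CPM. The fasted males of CT44 thus fell into the range of fed females of that time, 3.06 and 0.629 CPM, or below it. The mean change in males was -4.58 (SE 0.29, adjusted p = 2.47e-17, edgeR's quasi-likelihood test), or 23.9-fold lower.

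Females expressed little Hsd3b5 even when fed, from 0.221 to 16.1 CPM (median 2.997, n = 18) from CT12 to CT44, and from 0 to 1.41 CPM (median 0.114, n = 18) when fasted. Of the fasted females from CT12 on, 4 had 0 counts: 1 of 2 at CT32 and at CT36 and both at CT44. A count of 0 allows up to 3 counts, 0.102 and 0.0931 CPM in the 2 libraries of CT44. The mean of these limits lay 18.9-fold below the mean of the control females of that time, 1.85 CPM. This is a ratio of means: the lower of the 2 control females had 0.629 CPM, against which the fold is smaller. These limits cover counting error only, and fitted changes of both sexes together at CT44 rest on those zeros and are not given. Hsd3b5 belongs to a family of very similar genes, and how reads shared between them were counted is not given in the sources used here.

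**Figure D3:**
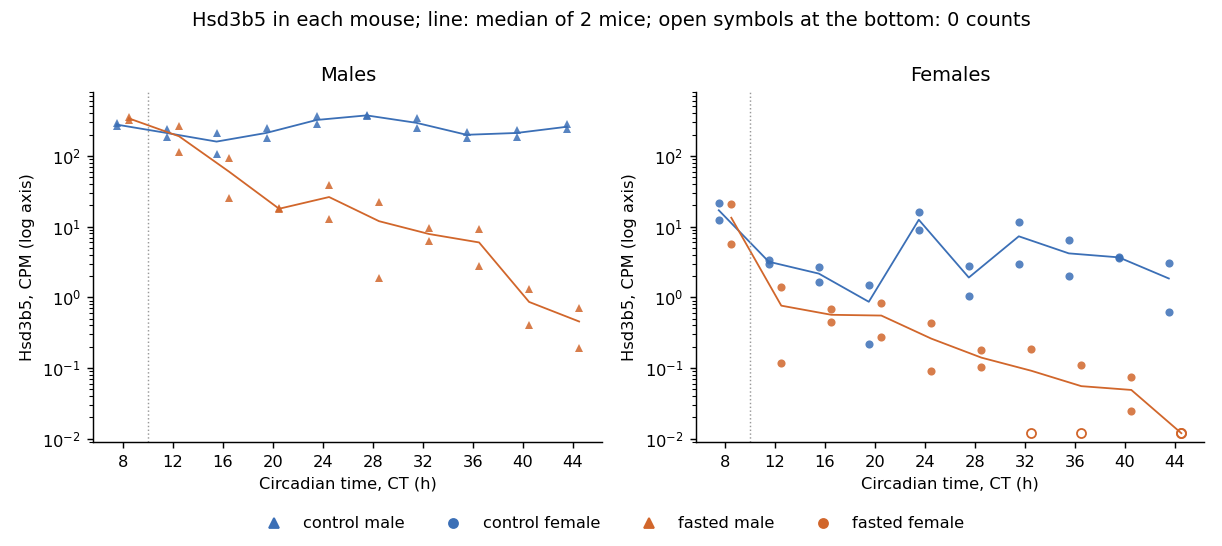
Hsd3b5 in each mouse (CPM, log axis) by circadian time, males on the left and females on the right; lines are medians of 2 mice and open symbols at the bottom are libraries with 0 counts. In fasted males the level falls from 264 and 114 CPM at CT12 to 0.718 and 0.193 CPM at CT44, while fed males stay at or above 106 CPM.

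The design asked next whether fasting acted on the axis in the same way in males and females. The fall of the receptor, of IGF-1 and of the acid-labile subunit was larger in females, and so was the rise of Igfbp1. Within males alone 6 of 10 members were called, beside 46.3% of all genes, and within females alone 9, beside 58.4%. The test of the female minus male difference in the mean fasting effect called 4 of 10 members, beside 12.4% of all genes (edgeR's quasi-likelihood test). Igf1 differed by -0.56 (SE 0.12, adjusted p = 0.00115). Igfals changed by -0.71 (SE 0.12) in males and -1.56 (SE 0.13) in females, a difference of -0.85 (SE 0.17, adjusted p = 8.53e-04). Ghr changed by -0.68 (SE 0.09) in males and -1.06 (SE 0.09) in females, a difference of -0.38 (SE 0.13, adjusted p = 0.0401). The medians of 18 mice show the same order, with Ghr at 610.0 CPM in fed and 361 CPM in fasted males, and 504 and 223 CPM in females. Igfbp1 changed by 3.51 (SE 0.41) in males and 5.17 (SE 0.44) in females, a difference of 1.67 (SE 0.53, adjusted p = 0.0312).

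Single libraries bore on these differences to unequal degrees. In limma-voom, with each of the 80 libraries left out in turn, the sex differences of Igf1 and Igfals were called in all 80 fits, with highest adjusted p of 0.00162 and 6.20e-04. That of Ghr (-0.42, adjusted p = 0.0265) was lost without fasted CT44 female 1 (-0.38, adjusted p = 0.0511). In edgeR's quasi-likelihood test the call of Ghr was also lost with CT20, CT36, CT40 or CT44 left out (adjusted p between 0.0821 and 0.208). That of Igfbp1 was not called in limma-voom (1.41, adjusted p = 0.108), went to 1.08 (adjusted p = 0.182) without fasted CT40 female 2 and was called without fasted CT40 female 1 (1.74, adjusted p = 0.0134). Its call in edgeR's quasi-likelihood test was lost with CT12, CT20 or CT40 left out (adjusted p between 0.0781 and 0.175). With 1 replicate of the males left out at every time, which leaves 1 male per group, 0 of 10 members were called in this test. Cish was called in females (-0.90, SE 0.32, adjusted p = 0.0141, edgeR's quasi-likelihood test) and not in males (-0.25, SE 0.32), but the difference of -0.66 (SE 0.45, adjusted p = 0.383) was not called. Igfbp2, with 0.82 (SE 0.10) in males and 1.17 (SE 0.10) in females, was not called either (adjusted p = 0.112). The call of Cish within females was lost with CT36 left out (-0.75, adjusted p = 0.0564, edgeR's quasi-likelihood test). Without female replicate 1 of every time the change of Cish in females was -1.15, and without female replicate 2 it was -0.71.

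**Figure D4:**
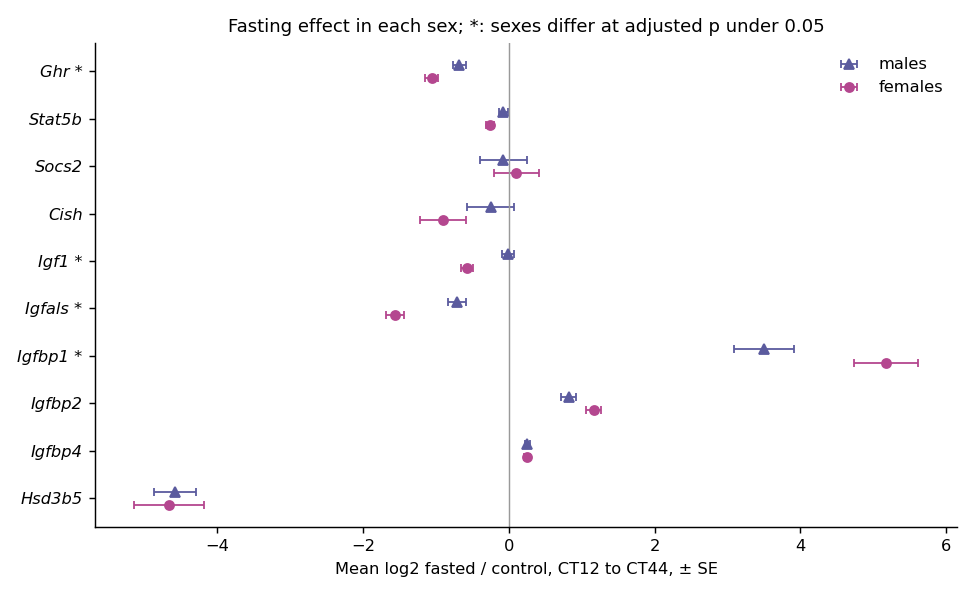
Mean log2 change, fasted against control from CT12 to CT44, in males (triangles) and females (circles) with SE; an asterisk marks the 4 members whose change differed between the sexes, and the value of Hsd3b5 in females rests in part on libraries with 0 counts. Igf1 lies at -0.01 in males and -0.57 in females, and Igfbp4 at 0.26 in males and 0.25 in females.

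In control mice, females and males differed in 5 of 10 members over CT8 to CT44, beside 39.2% of all genes (edgeR's quasi-likelihood test). Hsd3b5 stood far apart, with 106 to 379.9 CPM (median 240.2, n = 20) in males and 0.221 to 21.8 CPM (median 3.03, n = 20) in females, a female minus male difference of -6.03 (SE 0.29, adjusted p = 1.24e-21). The ranges of the sexes did not meet, which is the known male pattern of this gene. Ghr was lower in fed females by 0.30 (SE 0.08, adjusted p = 0.00419) and Igfals higher by 0.31 (SE 0.12, adjusted p = 0.0281). Stat5b was higher in fed females by 0.20 (SE 0.05) and Igfbp4 lower by 0.10 (SE 0.04, adjusted p = 0.0293); the latter call was lost without the library rich in ribosomal RNA (-0.09, adjusted p = 0.0502). Igf1 did not differ by the threshold (0.10, 95% interval -0.05 to 0.26).

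In fasted mice the sexes differed in 6 of 10 members, beside 38.0% of all genes (edgeR's quasi-likelihood test). For Igfals the order of the sexes turned: fed females had more (155 against 134 CPM, medians of 20), and fasted females had less than fasted males, by 0.52 (SE 0.12, adjusted p = 6.64e-04). Igf1 was lower in fasted females by 0.47 (SE 0.08, adjusted p = 1.33e-05) and Ghr by 0.68 (SE 0.09). Igfbp1 was higher in fasted females by 1.62 (SE 0.38, adjusted p = 6.57e-04); without female replicate 2 of every time the difference was 0.82 and was not called (adjusted p = 0.108). Socs2 was higher in fasted females by 0.81 (SE 0.32, adjusted p = 0.0384), and in fed females by 0.70 (SE 0.30), which was not called (adjusted p = 0.0589). In limma-voom the calls were the other way round, with 0.80 (adjusted p = 0.0661) in fasted and 0.81 (adjusted p = 0.0381) in fed mice.

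The effect of fasting was not the same at all times. The joint test of equal change at the 9 times called 6 of 10 members, Ghr, Stat5b, Igfals, Igfbp1, Igfbp2 and Hsd3b5, beside 33.7% of all genes (edgeR's quasi-likelihood test). With 1 replicate of 1 sex left out at every time it called 1 to 6. Hsd3b5 was not called in limma-voom (adjusted p = 0.0665), and its estimate at CT44 includes fasted females with 0 counts. At CT12, 2 h after the removal of food, 0 members were called, beside 1.60% of all genes; Igfbp1 and Igfbp4 had unadjusted p of 0.00295 and 0.0106. At CT16, 4 members were called (Igfals, Igfbp1, Igfbp2 and Hsd3b5), beside 23.4% of all genes, and Ghr and Stat5b joined at CT20, when 6 were called beside 36.6%. Of these, Hsd3b5 was not called at CT16 in limma-voom (adjusted p = 0.135) or DESeq2 (adjusted p = 0.0535), nor at CT20 in limma-voom (adjusted p = 0.15). The count was 6 at CT24 (24.1% of all genes), 5 at CT28 (21.0%), 5 at CT32 (17.7%), 6 at CT36 (26.8%), 7 at CT40 (39.9%) and 7 at CT44 (39.4%). Ghr, Igfals and Hsd3b5 were lower, and Igfbp1, Igfbp2 and Igfbp4 higher, at 9 of 9 times, called or not. In limma-voom with 1 library left out, calls near the threshold were lost: that of Igfbp2 at CT16 without any 1 of 6 libraries of that time, that of Igfbp4 at CT36 without any 1 of 7, and those of Hsd3b5 at CT28, CT32 and CT36 without 1 fasted female each (female 1 of that time).

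**Figure D5:**
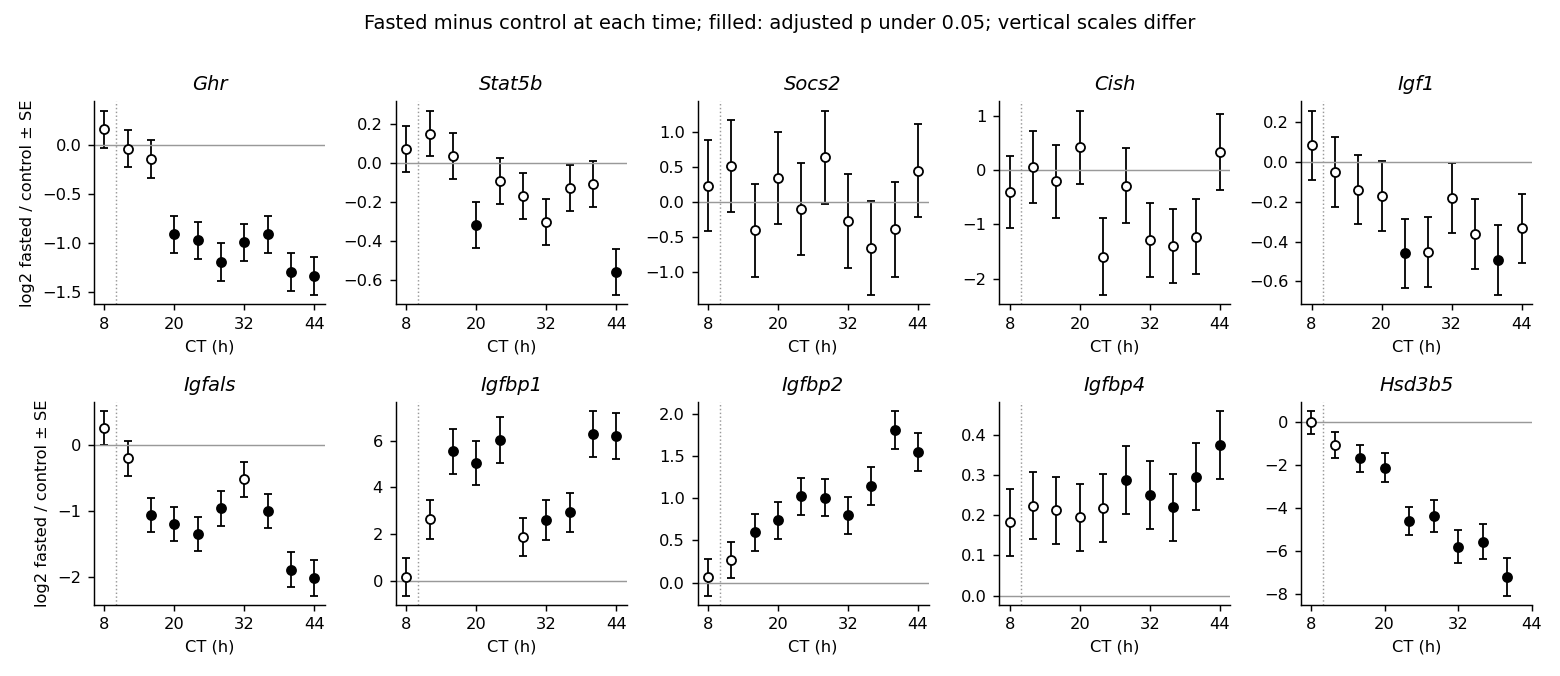
Log2 change, fasted against control, with SE at each time for the 10 members; filled points are called, the dotted line marks the removal of food, and vertical scales differ between panels. Ghr falls between CT16 and CT20, Igfbp1 rises in 2 waves with 6.01 at CT24 and 6.27 at CT40, and Socs2 has no called point; Hsd3b5 at CT44 is left out because both fasted females have 0 counts.

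A cosine of 24 h, beside a term for sex, was fitted to the 40 control libraries, and 5 of 10 members were called, beside 41.8% of all genes (edgeR's quasi-likelihood test). Stat5b peaked at CT0.14, near subjective dawn, and swung by 0.69 (log2) between peak and trough (adjusted p = 4.29e-08). Igfbp4 peaked close to subjective dusk, at CT12.1, with 0.53 (adjusted p = 5.8e-08). Igfals peaked at CT19.3 with 0.39 (adjusted p = 0.00452), Hsd3b5 at CT4.60 with 1.57 (adjusted p = 0.00686) and Ghr at CT9.90 with 0.22 (adjusted p = 0.00739). Igf1 was not called (peak-to-trough 0.20, adjusted p = 0.213), nor was Igfbp1 (1.24, adjusted p = 0.226).

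In the 36 fasted libraries from CT12 on, with a linear change over the fast in the model, 5 of 10 members were called, beside 47.1% of all genes (edgeR's quasi-likelihood test). Igfbp1 had the largest fitted swing, 3.90 from peak to trough with a peak at CT20.0 (adjusted p = 6.04e-06). Igfbp4 peaked at CT11.5 with 0.54, close to its values in controls, and a difference in rhythm was not called (adjusted p = 0.982). Stat5b peaked at CT0.74 with 0.43 and Ghr at CT12.0 with 0.77 (adjusted p = 0.00258 and 0.00192), and neither was called different from controls (adjusted p = 0.322 and 0.0574). Over the 72 libraries of both treatments, the rhythm differed for 2 of 10 members, Igfbp1 (adjusted p = 0.00438) and Igfals (adjusted p = 0.00631), beside 21.6% of all genes. Igfals peaked at CT8.63 in fasted mice (0.82, adjusted p = 0.00477), against CT19.3 in controls. With 1 replicate left out at every time, the test of the difference called 0 to 3 members. The fast had a single length at each time, so a rhythm and a course of the fast that is not linear cannot be told apart.

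Other genes of the pathway were taken from lists by role. Of 16 genes of growth hormone receptor signalling, 7 rose, 7 fell and 2 were not called in the mean fasting effect (edgeR's quasi-likelihood test; background as above), with a median change of 0.01, beside -0.02 over all genes. The largest rises were those of Irs2 (1.63, SE 0.09), an adaptor shared with the insulin receptor, Socs3 (0.46, SE 0.12), another feedback inhibitor, and Sh2b1 (0.31, SE 0.02), an adaptor of JAK2. Those that fell included Sirpa (-0.55, SE 0.07) and Stat5a (-0.48, SE 0.07), the close relative of Stat5b. Jak2, the kinase bound to the receptor, was -0.18 (SE 0.03, adjusted p = 6.95e-07).

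Of 14 further IGF ligands, receptors and binding or processing proteins, 13 had enough counts to be tested. Of these, 5 rose and 4 fell, beside 29.5% and 32.9% of all genes, and 4 were not called, with a median of -0.09. Igfbp5 fell by 1.27 (SE 0.10) and Grb10, an adaptor that restrains insulin and IGF receptors, by 0.65 (SE 0.07), followed by Igfbp7 with -0.22 (SE 0.02). Insr, the insulin receptor, rose by 0.39 (SE 0.03), Igfbp3, which binds IGF-1 in the ternary complex with the acid-labile subunit, by 0.36 (SE 0.09) and Igf1r by 0.36 (SE 0.08). Igfbp3 and Igfals, partners in the same complex, moved in opposite directions, both called in edgeR's quasi-likelihood test (adjusted p = 8.75e-04 and 1.49e-15). Igfbp3 is made mainly outside hepatocytes in liver; the markers of sinusoidal endothelium Stab2, Clec4g, Lyve1 and Pecam1 summed to 154 to 232 CPM in controls and 157 to 281 CPM in fasted mice, with 2 of 4 higher and 1 lower, and their part in the rise was not tested.

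Of 7 targets that FOXO1 activates and insulin represses (1 of them listed under an older and a current symbol), 7 rose. This stood beside 29.5% of all genes, and the median was 0.89. The smallest rise was that of Sesn1 (0.28, SE 0.12, adjusted p = 0.046, edgeR's quasi-likelihood test), which changed by -0.02 in males (not called). The largest were Pck1 (1.80, SE 0.08), Ppargc1a (1.73, SE 0.12) and Irs2 (1.63). Igfbp1, with 4.34, changed by more than any of these. Of 7 factors tied to the sex pattern of growth hormone action in liver, 4 rose, 2 fell and 1 was not called. Of all genes, 29.5% rose and 32.9% fell. Tox (1.46, SE 0.08), Cux2 (0.88, SE 0.25) and Trim24 (0.71, SE 0.06) rose; in controls Cux2, a repressor typical of female liver, was higher in females by 5.96. In males Cux2 changed by 1.73 (SE 0.43) and in females by 0.03 (SE 0.26), and the difference was called (adjusted p = 0.0181, edgeR's quasi-likelihood test). Onecut1 fell by 1.60 (SE 0.26, mean of both sexes). Prlr, the prolactin receptor, changed by -0.20 in males (SE 0.09, adjusted p = 0.0599, not called) and by -1.13 in females (SE 0.09), and the difference was called (adjusted p = 2.38e-06, edgeR's quasi-likelihood test).

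Hsd3b5 did not move with all male-type genes. Of 10 male-biased liver genes, all higher in fed males than in fed females, 5 fell with fasting, 2 rose and 3 were not called. Their median was -0.15, and of all genes 32.9% fell and 29.5% rose. Selenbp2 fell by 3.02 (SE 0.15), Slco1a1 by 1.58 (SE 0.14) and Ugt2b38 by 1.21 (SE 0.11). Cyp4a12b rose by 0.83 (SE 0.18) and Cyp2d9 by 0.52 (SE 0.11). Their rises were smaller in males, 0.42 (SE 0.16) and 0.38 (SE 0.16), than in females, 1.24 (SE 0.33) and 0.67 (SE 0.16). Within males alone, 2 of the 10 male-biased genes rose and 5 fell, beside 22.1% and 24.3% of all genes. Of 13 female-biased genes, all higher in fed females, 2 rose (among them Acot3, 2.13, SE 0.20), 1 fell (Ntrk2, -1.41, SE 0.22) and 10 were not called in edgeR's quasi-likelihood test. These are means of both sexes. Acot3 changed by 3.79 (SE 0.32) in males and by 0.46 (SE 0.26, not called) in females. The difference was called (adjusted p = 5.35e-07, edgeR's quasi-likelihood test). Within females alone, 0 of the 13 female-biased genes rose and 7 fell, beside 27.7% of all genes that rose and 30.7% that fell in females. Within males alone, 2 rose and 1 fell, beside 22.1% and 24.3%. Several of these genes belong to families of near-identical cytochrome P450 copies, whose shares of reads are uncertain.

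The genes whose levels over the 20 means of treatment and time were most like those of a member were found among 11575 genes by Pearson's r on the log2 scale, as a description. For Igfbp1 these were Mapk1ip1 (r 0.97), Ip6k2 (r 0.96) and 9430037G07Rik (r 0.96). For Hsd3b5 they were Slc22a28 (r 0.97), Rbbp4 (r 0.97) and Pkhd1 (r 0.97), and for Igf1 Cgnl1 (r 0.93), 5430416N02Rik (r 0.93) and Pik3r1 (r 0.92). For Cish they were Arhgap21 (r 0.87), Pfkfb3 (r 0.85) and Meg3 (r 0.85), and for Socs2 C87436 (r 0.76), Med17 (r 0.73) and Pcgf6 (r 0.72). All profiles were read from the same 80 libraries, with 4 per mean.

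Counts on exon bins, numbered stretches of a gene's exons without coordinates, asked whether fasting changed which exons of a gene were used. By diffSpliceDGE in edgeR, 6 of 10 members were called, beside 14.3% of the 13889 genes tested: Ghr, Stat5b, Socs2, Igf1, Igfals and Igfbp2. Of all bins, 2.07% were called. In Ghr, bins 19, 20 and 21 were lower in fasted mice relative to the other bins of the gene, by -0.56 (adjusted p = 0.00344), -0.63 (adjusted p = 3.2e-05) and -0.66 (adjusted p = 3.86e-10, edgeR) on the log2 scale. Bin 21 had a mean of 55.9 counts in control and 16.6 counts in fasted libraries. In Igfals, bins 3 and 4 were higher relative to the gene, by 0.78 and 0.57, with means of 18.3 and 14.8 counts in controls, and in Igfbp2 bin 3 by 0.41, with 37.8 counts. These bins hold few reads: with at least 10 counts asked of a bin in every library, 1 member (Stat5b) was called, and with limma's diffSplice 3 (Ghr, Stat5b and Igfals). For fasted CT40, 3 columns of the exon table matched another library of that group best, so that its 4 libraries were fitted without sex. Which exons the bins are was not analysed here.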

How the data were processed

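Livers of the 80 mice had been sequenced from libraries of polyadenylated RNA made with a stranded kit. Per the labels, the submitters' processing notes name Trimmomatic, HISAT2, DESeq2 and the build GRCm39; the counter, its strand setting and versions are not given in the sources used here. The authors deposited whole-number read counts per gene, and per exon bin, without normalization; their table of scaled counts was not used. Samples were grouped by title, since other labels contradicted the titles.

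Genes with too few counts were removed (filterByExpr with a minimum count of 10, leaving 21187 of 78275), libraries were scaled by TMM, and edgeR 4.0.16 in R 4.3.3 fitted 1 mean per treatment, time and sex over all 80 libraries, so that groups shared an estimate of the spread. Contrasts were tested by edgeR's quasi-likelihood test with Benjamini-Hochberg adjustment over all genes, rhythms as a cosine of 24 h, and exon use with diffSpliceDGE. Levels are TMM-scaled CPM with no prior count, and most-like genes used a prior count of 2. The steps were tested on simulated data. Alternatives were other scalings and filters, limma-voom (limma 3.58.1), DESeq2 1.42.0, stricter thresholds, a replicate block, and leaving out replicates, times or, chosen after seeing the data, single libraries. The members and gene lists were chosen with earlier results of these data known. Of each list, up to 3 genes with the largest rise and 3 with the largest fall among those called, with a mean log2 CPM of at least 0, are named, except for some not reported here; Jak2 is also named, for its role. Depth ranged from 25534901 to 59927771 counts. Nothing says that mice of a group came from separate litters or cages, and p-values measure the spread between these mice.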

Additional observations from a re-analysis of the deposited data

Results flagged for a closer look

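Within each group of 4, the largest gap of a single mouse to its neighbour was taken as a share of the range. Both were on the log2 scale, not in CPM. Chance puts about 1 in 20 of the 200 groups of 1 gene, treatment and time, or 10, above Dixon's 95% critical value. In 8 groups the share was above that value for 4 samples. In fasted mice these were Ghr in CT16 male 2 (0.915), Stat5b in CT36 female 2 (0.885) and Igfals in CT40 female 2 (0.932); Socs2 in CT8 female 1 (0.914) was from the mice that were to be fasted and were still fed. In controls they were Socs2 in CT28 male 2 (0.901), Cish in CT36 male 1 (0.889), Igfbp1 in CT32 male 2 (0.908) and Igfbp4 in CT24 female 1 (0.94).

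The fasting effect differed between the sexes for 4 genes, with a female minus male difference of -0.38 for Ghr, -0.56 for Igf1, -0.85 for Igfals and 1.67 for Igfbp1 on the log2 scale, each called in edgeR's quasi-likelihood test.

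The fasting effect differed between the 9 times for 6 genes, with an adjusted p of 3.7e-04 for Ghr, 0.0246 for Stat5b, 0.00181 for Igfals, 0.00199 for Igfbp1, 0.00259 for Igfbp2 and 2.27e-05 for Hsd3b5 in the same test. In limma-voom Hsd3b5 was not called (adjusted p = 0.0665).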

How the results depend on the processing

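Of the values of single genes under other settings, 1879 kept their direction and their side of the threshold, 167 lost and 38 gained a call, and 12 turned direction; the causes were not tested. The mean change of Socs2, 0.01, became -0.035 in limma-voom and -0.049, -0.027, -0.065 and -0.041 without CT12, CT20, CT28 and CT44, and ranged from -0.065 to 0.10 with a replicate left out. In males, Igf1 became 0.0078 without CT28 and 0.00048 without CT40 and ranged from -0.049 to 0.0066 with a replicate left out, and Cish from -0.25 to 0.19. Without the filter on low counts, the 5 calls of Igfbp4 at single times were lost, 8 members differed between the sexes in controls, 9 had a rhythm in fasted mice and 5 a different rhythm. In that setting p-values moved far while changes did not. For Socs2 between the sexes in controls the adjusted p went from 0.0589 to 3.93e-40, with a difference of 0.70 in both (edgeR's quasi-likelihood test). At an adjusted p under 0.01, 2 members differed in their fasting effect by sex and 3 between the sexes in controls, and with a change of 1.5 times 5 were called in the mean effect. By sex, 2 were called without CT20 and 2 without CT40. For exon use, limma's diffSplice called 3 members and bins with 10 counts in every library gave 1.

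With a replicate or a library left out, the members called ranged from 8 to 9 in the mean effect, 1 to 6 by time, 0 to 4 by sex, 3 to 7 between the sexes in controls, 4 to 7 between the sexes in fasted mice, 3 to 6 for rhythms in controls, 0 to 3 for a different rhythm, 2 to 3 for exon use, and 27 to 51 over the 9 single times (46 with all libraries). Leaving out 1 male of each group had the widest effect on all genes: by time 1647 and 1186 were called (7130 with all), by sex 238 and 360 (2621), in males 5689 and 6268 (9817), between fasted sexes 5122 and 5170 (8052) and, for a different rhythm, 2462 without male replicate 2 (4537). At an adjusted p under 0.01 these were 4297 by time, 1106 by sex and 2480 for a different rhythm; with a change of 1.5 times 4359 of 13233 stayed in the mean; by sex 1279 were called without CT40 and 1688 without CT44; and exon use fell from 1985 to 946 genes with 10 counts in every library and to 798 and 891 without replicate 1 or 2.

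The replicate numbers were not taken to pair the mice. Correlations between same-numbered mice of both treatments ran from -0.15 to 0.50 (median 0.00044), and 5 of 20 were over 0.1. These values cannot decide whether the mice of some groups were paired. A fit with the replicate number as a block added calls for a rhythm in fasted mice of Cish (adjusted p = 0.0444) and Igf1 (adjusted p = 0.0482), 7 members in place of 5, and changed no other member's call. Depth limits Hsd3b5 in fasted females, where 3 counts correspond to 0.0551 to 0.11 CPM.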
